A study of Mus musculus with 12 samples.

Results

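The genes described here are 10 genes of eicosanoid synthesis, found in the deposited count table by matching its Ensembl identifiers to gene symbols. All 10 of the 10 were present among the 57010 genes of the table, and all 10 were among the 15943 genes with enough counts to be tested. They fall into a lipoxygenase branch of 5 genes (Alox15, Alox5, Alox5ap, Lta4h and Ltc4s) and a cyclooxygenase branch of 5 genes (Ptgs1, Ptgs2, Ptges, Ptgis and Hpgds).

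Libraries were made in bulk from large peritoneal macrophages, the resident F4/80-high, MHC class II-low macrophages of the mouse peritoneal cavity. WT naive and Tim4KO naive cells came from female mice, wild type or lacking Tim4, that received no tumour cells. Tim4 is a receptor for phosphatidylserine on dying cells and is encoded by Timd4. WT ID8 and Tim4KO ID8 cells came from female mice of the same genotypes that were 8 weeks old when ID8ZGO cells, an ID8 mouse ovarian tumour line expressing ZsGreen and OVA, were injected intraperitoneally. Those cells were sorted 24 hours later and had to be ZsGreen-positive as well, so the challenged cells were selected for carrying tumour material and the naive cells were not. Challenge and uptake therefore cannot be told apart in these groups. Each group had 3 libraries, numbered as in the labels. The labels do not say whether the 3 libraries of a group came from separate mice, and p-values then measure only the spread between these libraries, which may be technical. The labels give neither the way the Timd4 allele was made nor the age of the naive mice.

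Eicosanoids are lipid mediators made from arachidonic acid, which phospholipases release from membranes. In the lipoxygenase branch, 5-lipoxygenase (Alox5) with its activating protein (Alox5ap) makes leukotriene A4, which Lta4h turns into leukotriene B4 and Ltc4s into the cysteinyl leukotriene C4. Alox15 encodes 12/15-lipoxygenase, which oxidises both free and membrane-bound fatty acids and is a known product of resident peritoneal macrophages. In the cyclooxygenase branch, Ptgs1 and Ptgs2 (COX-1 and COX-2) make prostaglandin H2, which Ptges, Ptgis and Hpgds convert to prostaglandin E2, prostacyclin and prostaglandin D2. Ptgs1 is mostly described as constitutive, and Ptgs2 and Ptges as inducible.

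Because Ptgs2 and Ptges were the members with the largest increases in challenged WT cells, the 250 bases before their starts are shown with those of Ptgs1, whose level stayed within the spread of the libraries. The sequences are RefSeq reference sequence of build GRCm38.p6 and are written on the strand of the gene. RefSeq promoters of 7 of the 10 genes were at hand. Capitals mark matches to a GC box (GGGCGG, either strand) or to the C/EBP palindrome TTGCGCAA. Ptgs2 lies at chr1:150099781-150100030 on the plus strand, Ptges at chr2:30903298-30903547 on the minus strand and Ptgs1 at chr2:36230176-36230425 on the plus strand.
Ptgs2: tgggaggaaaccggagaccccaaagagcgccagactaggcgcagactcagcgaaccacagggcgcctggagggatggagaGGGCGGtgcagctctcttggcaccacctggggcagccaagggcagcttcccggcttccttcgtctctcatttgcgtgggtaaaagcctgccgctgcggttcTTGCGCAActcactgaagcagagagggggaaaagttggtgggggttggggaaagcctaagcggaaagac
Ptges: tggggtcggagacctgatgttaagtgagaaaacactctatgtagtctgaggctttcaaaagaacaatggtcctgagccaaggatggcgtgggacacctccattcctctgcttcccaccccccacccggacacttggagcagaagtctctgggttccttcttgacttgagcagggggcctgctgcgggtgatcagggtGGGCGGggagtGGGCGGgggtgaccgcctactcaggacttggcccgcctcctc
Ptgs1: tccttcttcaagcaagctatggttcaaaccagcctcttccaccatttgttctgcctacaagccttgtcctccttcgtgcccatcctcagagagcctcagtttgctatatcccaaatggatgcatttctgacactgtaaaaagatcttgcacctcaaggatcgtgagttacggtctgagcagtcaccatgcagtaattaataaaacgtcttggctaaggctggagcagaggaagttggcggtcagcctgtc
The Ptgs2 window held 1 GC box, beginning 170 bases before the start, and 1 C/EBP palindrome, beginning 69 bases before it. In the Ptges window there were 2 GC boxes, at 53 and 42 bases, and in the Ptgs1 window neither motif. Over the 32851 promoters of the same length, 32.7% held the GC box and 0.164% the C/EBP palindrome. The cAMP response element TGACGTCA (1.55% of all promoters) and the NF-kB consensus (7.25%), searched on both strands, had no match in any of the 3 windows. GC content was 61.6% for Ptgs2, 59.6% for Ptges and 48.0% for Ptgs1, against a median of 52.4%. The motifs searched do not overlap one another in these windows. These matches describe the letters of the windows and say nothing of which factors bind there.

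Levels are CPM, counts scaled to library size, after TMM scaling, which sets library sizes by a trimmed mean of ratios between libraries. Library totals ran from 7358559 to 23170244 counts, so that 3 counts, taken as the lowest level told from 0, stood for 0.137 to 0.399 CPM. Such floors cover counting error only. Timd4 reached 1315 ± 159 CPM in WT naive and 1149.7 ± 286 in WT ID8 cells, against 7.41 ± 0.262 and 1.72 ± 0.291 in the Tim4KO groups (mean ± SD, n = 3 each). The 7 markers of large peritoneal macrophages summed to 8578 to 12880 CPM in the 12 libraries, and none of them was at 0 in any group. Library 3 of WT ID8 stood apart, being the deepest, with the fewest genes detected (21235 against 24347 to 40365 in the others) and the fewest reads in olfactory and vomeronasal receptor genes (5.91 CPM against 40.4 to 886). This receptor-gene background, here and below, is in CPM of raw library totals without TMM scaling. It covers receptor genes with a mean of at most 1 CPM. Where leaving out this library changed a call, both values are given beside the gene. The receptor-gene background was 886, 322 and 457 CPM in WT naive and 255, 79.7 and 5.91 CPM in WT ID8 libraries, without overlap. It overlapped between the Tim4KO groups. Fits with this background as a covariate, quoted below, therefore cannot fully separate background from challenge in WT cells. In bulk samples, fewer cells of a type and less RNA per cell cannot be told apart.

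Set per kilobase of exon so that genes could be compared, Alox15 was the highest of the 10 genes in all 4 groups. It stood at 4602 ± 269 CPM per kb in naive WT, 4591 ± 682 in naive Tim4KO, 2238 ± 262 in challenged WT and 3131 ± 196 in challenged Tim4KO cells (mean ± SD, n = 3). In WT naive cells Alox5ap followed at 407 ± 28.7 CPM per kb and Ltc4s at 285 ± 18.1. Next came Ptgis at 166 ± 22.3, Ptgs1 at 120.2 ± 11.7 and Alox5 at 98.5 ± 11.4. Lta4h (10.7 ± 0.145) and Ptges (7.66 ± 1.56) were lower, and Hpgds (0.382 ± 0.125) and Ptgs2 (0.179 ± 0.0930) were the lowest. Hpgds and Ptgs2 were the 1 pair of neighbours in this WT naive order whose libraries overlapped. In challenged WT cells Ptges stood at 38.0 ± 27.7 CPM per kb and Lta4h at 14.0 ± 0.848, with overlapping libraries, and Ptgs2 (0.894 ± 0.877) and Hpgds (0.118 ± 0.134) overlapped as well. The enzymes that handle leukotriene A4 were unequal in level: in WT naive cells Ltc4s was 26.6 ± 1.92 times Lta4h per kb.

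Alox15 alone made up most of the eicosanoid synthesis RNA. Its share of all counts in a library was 1.12% to 1.22% in WT naive, 1.06% to 1.27% in Tim4KO naive, 0.449% to 0.585% in WT ID8 and 0.714% to 0.829% in Tim4KO ID8 cells. By that share it ranked 5 to 7 among all genes in WT naive libraries and 8 to 13 in WT ID8 libraries. Of the counts of the 10 genes together, Alox15 held 82.3% to 84.9% in the 6 naive libraries, 65.2% to 73.3% in WT ID8 and 74.1% to 77.0% in Tim4KO ID8 cells. The other 9 genes summed to 0.224% to 0.243% of counts in WT naive and 0.194% to 0.240% in WT ID8 libraries, which overlap. In Tim4KO cells they summed to 0.196% to 0.245% when naive and 0.247% to 0.250% when challenged, without overlap.

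Differences were tested with edgeR's quasi-likelihood F test over all 15943 genes, and those with a Benjamini-Hochberg adjusted p under 0.05 count as called. On challenge of WT cells, 4 of the 10 genes were called, where 31.8% of all tested genes were called. Alox15 fell, and Lta4h, Ptgs2 and Ptges rose. On challenge of Tim4KO cells 3 of the 10 were called, where 16.6% of all tested genes were: Alox15 fell, and Lta4h and Alox5 rose. Higher calls made up 19.5% of all tested genes in WT and 11.5% in Tim4KO cells, and lower calls 12.3% and 5.06%. With so few members, these counts are not read as standing apart from those shares. The median log2 change of the 10 genes was -0.07 in WT and 0.36 in Tim4KO cells, against -0.04 and -0.05 over all tested genes. Between naive and challenged libraries, 3 of the 10 genes did not overlap in WT and 4 did not overlap in Tim4KO cells, where 44.4% and 41.9% of all tested genes did not.

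**Figure D1:**
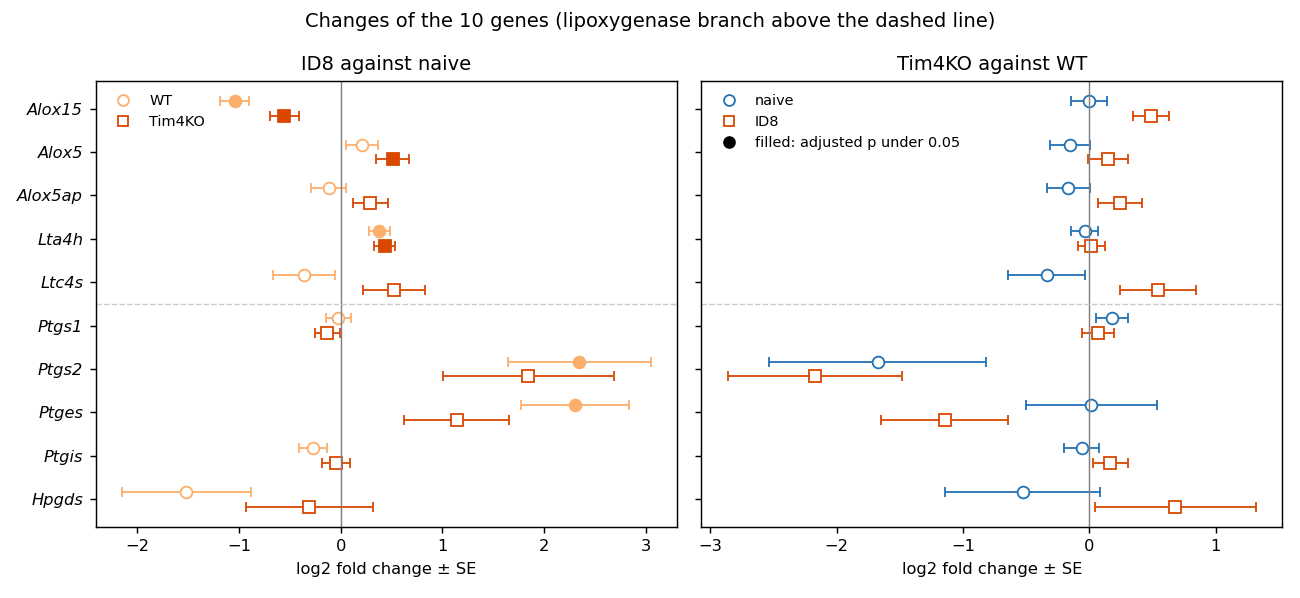
Log2 fold change of each of the 10 genes on ID8 challenge in WT and in Tim4KO cells (left) and between genotypes in naive and in challenged cells (right), with bars of 1 SE from the edgeR fit and filled points for an adjusted p under 0.05. Alox15 lies below 0 in both challenge comparisons (-1.04 in WT, -0.55 in Tim4KO), and the widest bars belong to Ptgs2, Hpgds and Ptges.

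In the lipoxygenase branch, Alox15 (ENSMUSG00000018924) fell on challenge in both genotypes. Its level was 10603, 11360.3 and 11918 CPM in WT naive libraries 1, 2 and 3, and 5823, 5905 and 4751 CPM in WT ID8 libraries. Every challenged WT library was thus below every naive one. The log2 change was -1.04 (SE 0.14, edgeR adjusted p = 0.000123), a 2.06-fold fall. In Tim4KO naive libraries the level was 13116, 10819.6 and 9861 CPM, and in Tim4KO ID8 libraries 7694, 8159 and 7199 CPM. These groups did not overlap either, and the log2 change was -0.55 (SE 0.14, edgeR adjusted p = 0.0150). This second call was less firm: with 1 of its own 6 libraries left out it held in 1 of 6 fits, and the highest adjusted p was 0.103, without Tim4KO ID8 3. The WT call held in all 12 such fits. In peritoneal samples Alox15 is also a gene of eosinophils. The 5 eosinophil markers summed to 2.58 to 4.14 CPM in WT naive and 2.80 to 4.45 in Tim4KO naive cells. After challenge they summed to 1.98 to 4.11 CPM in WT ID8 and 3.86 to 4.46 in Tim4KO ID8 cells. Prg2, which encodes a granule protein, was at 0 in all 6 WT libraries and reached 0.288 CPM in Tim4KO libraries. Ccr3 was at 1.065 to 3.612 CPM and Siglecf at 0.258 to 1.597 CPM over the 12 libraries. The part of eosinophils in the level of Alox15 was not tested.

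Challenged cells of the genotypes were also compared for Alox15. All 3 Tim4KO ID8 libraries (7199 to 8159 CPM) were above all 3 WT ID8 libraries (4751 to 5905 CPM). The log2 difference was 0.48 (SE 0.14), with an unadjusted p of 0.00373 and an edgeR adjusted p of 0.231, so Alox15 was not called. Over all alternatives the adjusted p lay between 0.0144, with DESeq2, and 0.704, without Tim4KO ID8 3. In naive cells the difference was -0.00 (SE 0.14, edgeR adjusted p = 0.998). The interaction (the response to challenge in Tim4KO less that in WT cells) was 0.49 (SE 0.20) with an unadjusted p of 0.0272 and an edgeR adjusted p of 0.668, and a weaker fall in Tim4KO cells was therefore not established.

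Alox5 (ENSMUSG00000025701), the first enzyme of leukotriene synthesis, was called in Tim4KO cells. It stood at 412, 339 and 339 CPM in Tim4KO naive and at 531, 528 and 494 CPM in Tim4KO ID8 libraries. The challenged libraries lay above the naive ones without overlap, with a log2 change of 0.51 (SE 0.16, edgeR adjusted p = 0.0409). The call was lost in 5 of the 6 fits that left out 1 of these libraries (adjusted p up to 0.162, without Tim4KO naive 3), and under upper-quartile scaling (0.0819) or with the size factors of DESeq2 (0.0714). In WT cells Alox5 was at 358, 452 and 404 CPM when naive and 384, 419.7 and 599.8 CPM when challenged. The groups overlapped, library 3 of WT ID8 being the highest of the 12, and the log2 change was 0.21 (SE 0.16, edgeR adjusted p = 0.312), or 0.01 without that library. Upper-quartile scaling, which moved the median of all genes to -0.28, turned the WT change to -0.14. The difference between the responses of the genotypes was 0.30 (SE 0.23, edgeR adjusted p = 0.739).

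The fall of Alox15 with no matching fall of Alox5 changed the balance of the 2 lipoxygenases. Per kilobase, Alox15 was 47.0 ± 4.26 times Alox5 in WT naive and 51.8 ± 2.68 times in Tim4KO naive cells (mean ± SD, n = 3). The ratio was 25.4, 23.5 and 13.3 in WT ID8 libraries 1, 2 and 3, and 24.8 ± 0.896 in Tim4KO ID8 cells. All 6 challenged libraries were below all 6 naive ones, which ranged upward from 42.1. These ratios were not tested beyond the changes of their genes.

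Alox5ap (ENSMUSG00000060063), the membrane protein that presents arachidonic acid to 5-lipoxygenase, was not called in any comparison. Its mean was 577 ± 40.7 CPM in naive WT, 514 ± 114 in naive Tim4KO, 532 ± 125 in challenged WT and 629 ± 38.4 in challenged Tim4KO cells, with overlapping libraries throughout. The log2 change on challenge was -0.12 (SE 0.17, edgeR adjusted p = 0.608) in WT and 0.29 (SE 0.17, edgeR adjusted p = 0.284) in Tim4KO cells. Per kilobase there was 4.16 ± 0.507 times as much Alox5ap as Alox5 RNA in WT naive cells and 3.30 ± 0.212 times as much in WT ID8 cells.

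The 2 enzymes that compete for leukotriene A4 differed in how closely their libraries agreed. Lta4h (ENSMUSG00000015889), which makes leukotriene B4, was at 65.6, 66.4 and 64.6 CPM in WT naive and 65.9, 62.2 and 63.4 CPM in Tim4KO naive libraries. It was at 79.5, 87.0 and 89.5 CPM in WT ID8 and 91.6, 84.0 and 83.2 CPM in Tim4KO ID8 libraries. All challenged libraries were above all naive ones, and the genotypes overlapped. The log2 change was 0.38 (SE 0.11, edgeR adjusted p = 0.0135) in WT and 0.43 (SE 0.11, edgeR adjusted p = 0.0115) in Tim4KO cells. This small rise depended on the scaling and on the model: under upper-quartile scaling the WT change was 0.14 with an adjusted p of 0.242, with the background covariate 0.28 (0.202) and with only the WT libraries 0.28 (0.103). Without library 3 of WT ID8 the WT change was 0.37 with an edgeR adjusted p of 0.0552. The Tim4KO call was lost without Tim4KO ID8 1 (0.0807), without Tim4KO naive 2 (0.0599), without Tim4KO naive 3 (0.0680) and with no filter on low counts (0.0751), each an edgeR adjusted p.

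Ltc4s (ENSMUSG00000020377), the leukotriene C4 synthase, varied among libraries of the same group and was not called in any comparison. The levels were 271, 289.8 and 308 CPM in naive WT, 295, 135 and 255 in naive Tim4KO, 208, 142 and 327 in challenged WT and 357, 278 and 352 in challenged Tim4KO libraries. The log2 change on challenge was -0.36 (SE 0.30, edgeR adjusted p = 0.369) in WT and 0.52 (SE 0.30, edgeR adjusted p = 0.281) in Tim4KO cells. Their difference of 0.88 (SE 0.43) had an edgeR adjusted p of 0.672. Without WT ID8 3 the Ltc4s change in WT cells was -0.71 (edgeR adjusted p = 0.0642). Over the 6 fits that left out 1 WT library it ran from -0.71 to -0.08. The highest edgeR adjusted p of these was 0.850, without WT ID8 2. Mast cells are known for Ltc4s and Hpgds. Of the 8 mast cell markers, the 7 other than Hdc summed to 16.4 to 39.9 CPM in WT naive, 13.6 to 34.6 in Tim4KO naive, 2.53 to 6.10 in WT ID8 and 6.51 to 9.53 in Tim4KO ID8 libraries. Hdc, the most abundant of the 8, went the other way in WT cells, at 75.2, 106 and 63.0 CPM when naive and 112, 117 and 143 CPM when challenged. With Hdc the 8 markers summed to 79.4 to 128 CPM in WT naive, 80.7 to 139 in Tim4KO naive, 114 to 148 in WT ID8 and 79.2 to 101 in Tim4KO ID8 libraries, so the whole list was not lower after challenge while the 7 others were. Their part in the levels of Ltc4s and Hpgds was not tested.

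**Figure D2:**
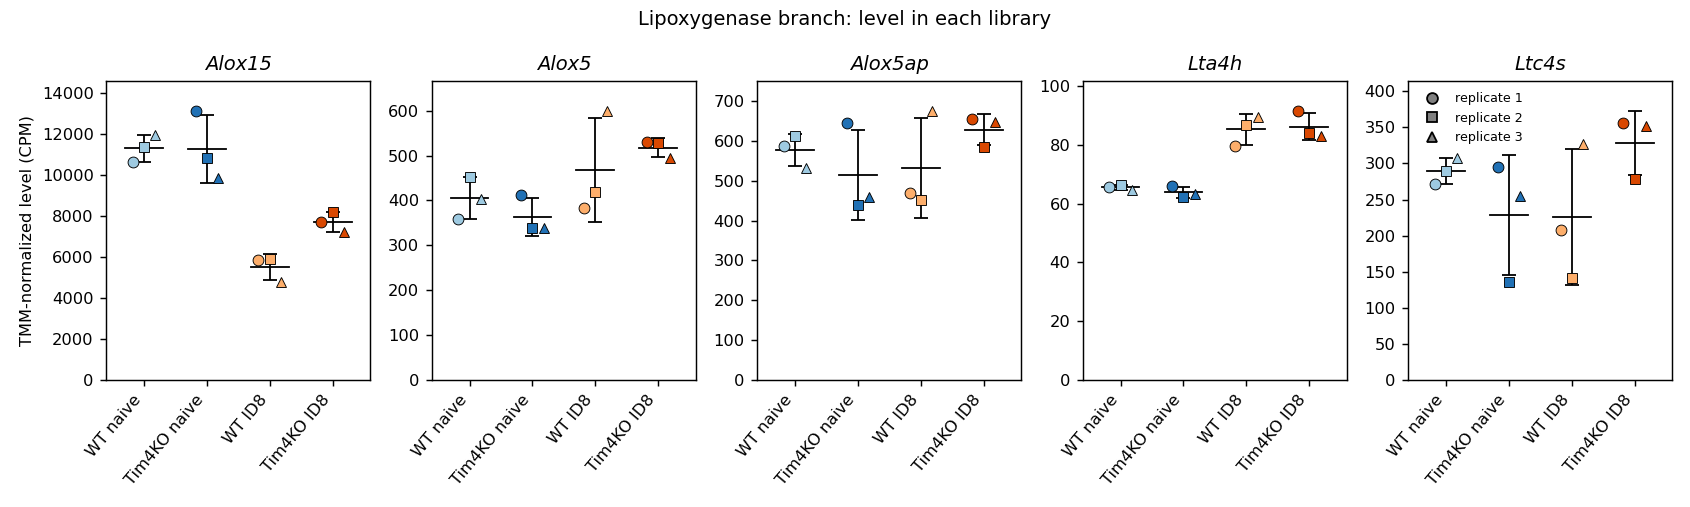
TMM-scaled level in CPM of the 5 lipoxygenase-branch genes in each of the 12 libraries, with a bar at the mean and whiskers of 1 SD for the 3 libraries of a group, and axes that start at 0. Alox15 separates naive (9861 to 13116 CPM) from challenged libraries (4751 to 8159 CPM), Lta4h separates them in the other direction, and Alox5ap and Ltc4s overlap.

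In the cyclooxygenase branch, the genes called on challenge were Ptgs2 and Ptges, the inducible pair, and both calls were in WT cells. With all libraries the interaction was called for neither gene, so a response particular to WT cells was not established. Ptgs1 (ENSMUSG00000047250), which encodes COX-1, stood at 436, 519 and 446 CPM in WT naive and 492, 422 and 466 CPM in WT ID8 libraries. The groups overlapped, with a log2 change of -0.02 (SE 0.13, edgeR adjusted p = 0.901). In Tim4KO cells it was at 599, 516 and 469 CPM when naive and at 497, 463 and 487 CPM when challenged, a log2 change of -0.13 (SE 0.13, edgeR adjusted p = 0.528).

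Ptgs2 (ENSMUSG00000032487), which encodes COX-2, was close to the lowest level that could be measured. It gave 12, 10 and 7 counts in naive WT, 5, 1 and 3 in naive Tim4KO, 21, 101 and 26 in challenged WT and 5, 13 and 19 in challenged Tim4KO libraries. As levels these were 1.30, 0.668 and 0.489 CPM in WT naive and 2.42, 8.68 and 1.19 CPM in WT ID8 libraries. Library 2 of WT ID8 was the highest, and library 3 of WT ID8 overlapped the naive ones. The log2 change in WT cells was 2.34 (SE 0.70, edgeR adjusted p = 0.0208). Without WT ID8 2 it was 1.17 (edgeR adjusted p = 0.241), and the call was also lost without WT naive 2 (0.0623), without WT naive 3 (0.0773), with only the WT libraries (0.0721) and with limma voom (0.132). In Tim4KO cells the levels were 0.410, 0.133 and 0.169 CPM when naive and 0.384, 1.20 and 1.09 CPM when challenged, with a log2 change of 1.85 (SE 0.84, edgeR adjusted p = 0.155). The Ptgs2 interaction was -0.50 (SE 1.19, edgeR adjusted p = 0.922). Per kilobase, Ptgs1 exceeded Ptgs2 in every library, by 57.3 times in WT ID8 2 and by 240.0 to 1075 times in the other 5 WT libraries. No such ratio is given for Tim4KO cells, where 2 naive libraries held 1 and 3 counts of Ptgs2.

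Ptges (ENSMUSG00000050737), the inducible synthase of prostaglandin E2, rose on challenge in WT cells. It was at 25.3, 28.0 and 37.0 CPM in WT naive and at 144, 261 and 43.5 CPM in WT ID8 libraries. All challenged libraries were above all naive ones, but the challenged libraries spread widely. The log2 change was 2.30 (SE 0.53, edgeR adjusted p = 0.0107), and the call held in all 12 fits that left out 1 library, with changes from 1.65 to 2.78. In a fit of only the 6 WT libraries the change was 2.18 with an edgeR adjusted p of 0.0699. In Tim4KO cells Ptges was at 30.8, 35.4 and 25.6 CPM when naive and at 62.3, 78.1 and 61.5 CPM when challenged. These groups did not overlap, and the log2 change was 1.14 (SE 0.52, edgeR adjusted p = 0.176). Without WT ID8 3 this Tim4KO change was 1.16 with an edgeR adjusted p of 0.00104, and in a fit of only the Tim4KO libraries 1.12 with an adjusted p of 0.000404, so the call there turned on how the spread was estimated.

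The genotype comparison of Ptges in challenged cells turned on libraries 2 and 3 of WT ID8. Tim4KO ID8 cells (67.3 ± 9.32 CPM) lay above library 3 and below libraries 1 and 2 of WT ID8, and the log2 difference between genotypes was -1.15 (SE 0.51), with an unadjusted p of 0.0492 and an edgeR adjusted p of 0.409. Without WT ID8 3 the difference was -1.60 with an edgeR adjusted p of 0.000695, and the interaction was -1.62 with an adjusted p of 0.0141, against -1.16 (SE 0.72) and 0.714 with it. Without WT ID8 2 the difference shrank to -0.47 (edgeR adjusted p = 0.837) and the interaction to -0.49 (edgeR adjusted p = 0.952). For Ptgs2 the difference between genotypes in challenged cells was -2.17 (SE 0.69), with an unadjusted p of 0.00652 and an edgeR adjusted p of 0.266. Leaving out WT ID8 3 gave -2.66 with an edgeR adjusted p of 0.00548, whereas leaving out WT ID8 2 gave -0.98 and an adjusted p of 0.786. It was called with no filter (-2.24, edgeR adjusted p = 0.0113) and when the background was a covariate (-2.87, edgeR adjusted p = 0.0343). Neither gene was thus called between genotypes in the fit used throughout, and for Ptgs2 that depended on the filter and on the covariate.

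Markers of other cells and the background moved among the same WT ID8 libraries. The 6 neutrophil markers summed to 31.8, 29.8 and 11.8 CPM in WT ID8 libraries 1, 2 and 3, to 22.2 to 32.4 CPM in Tim4KO ID8 and to 7.75 to 9.69 CPM in the 6 naive libraries. Among them, S100a8 was at 4.40 to 7.38 CPM in naive and 9.13 to 24.8 CPM in challenged libraries. S100a9, Retnlg, Mmp8, Cxcr2 and Ly6g overlapped between naive and challenged libraries, and Ly6g was at most 0.231 CPM in any library. The olfactory and vomeronasal receptor background stood at 255, 79.7 and 5.91 CPM in the same 3 libraries. With that background as a covariate, the log2 change of Ptges on challenge of WT cells was 2.95 (edgeR adjusted p = 0.0105). The part of the neutrophil markers in the Ptges and Ptgs2 results was not tested.

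Ptgis (ENSMUSG00000017969), the prostacyclin synthase, was not called in any comparison. Its means were 426 ± 57.2 CPM in naive WT, 408 ± 65.5 in naive Tim4KO, 353 ± 25.6 in challenged WT and 396 ± 16.1 in challenged Tim4KO cells. The log2 change on challenge was -0.27 (SE 0.14, edgeR adjusted p = 0.141) in WT and -0.05 (SE 0.14, edgeR adjusted p = 0.851) in Tim4KO cells. Upper-quartile scaling gave -0.51 in WT cells with an edgeR adjusted p of 0.00577, and DESeq2 gave -0.32 with an adjusted p of 0.0456. Ptgis is also made by fibroblasts and mesothelium. The 5 fibroblast markers summed to 3.06 to 14.1 CPM in naive and 0.0913 to 5.35 CPM in challenged libraries, and the 8 epithelial, mesothelial or tumour markers to 5.14 to 22.5 and 1.10 to 4.61 CPM. Ptgs1 is a platelet gene as well, and the 4 platelet markers summed to at most 1.86 CPM.

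Hpgds (ENSMUSG00000029919), the hematopoietic prostaglandin D2 synthase, was low in all groups. It gave 28, 23 and 40 counts in naive WT, 10, 18 and 34 in naive Tim4KO, 1, 5 and 38 in challenged WT and 19, 12 and 26 in challenged Tim4KO libraries. In CPM, WT naive cells were at 3.03, 1.54 and 2.79 and WT ID8 cells at 0.115, 0.430 and 1.73. Library 3 of WT ID8 was again unlike libraries 1 and 2. The log2 change in WT cells was -1.51 (SE 0.63, edgeR adjusted p = 0.0769) with all libraries, -3.00 (edgeR adjusted p = 0.00124) without WT ID8 3 and -2.99 (edgeR adjusted p = 0.0137) with the background covariate. In Tim4KO cells the change was -0.31 (SE 0.63, edgeR adjusted p = 0.778), and the Hpgds interaction was 1.21 (SE 0.88, edgeR adjusted p = 0.734).

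**Figure D3:**
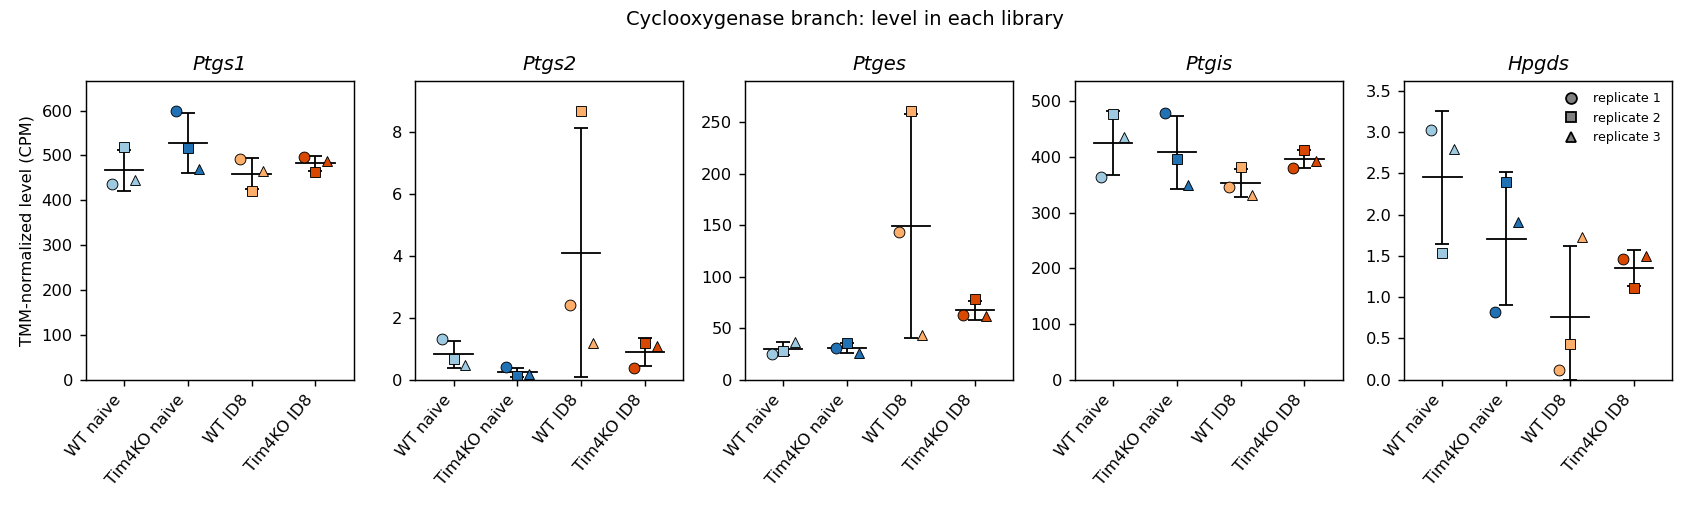
TMM-scaled level in CPM of the 5 cyclooxygenase-branch genes in each of the 12 libraries, with a bar at the mean and whiskers of 1 SD for the 3 libraries of a group, drawn down to 0 at most. Ptgs1 and Ptgis overlap between the groups, whereas WT ID8 library 2 is the highest for both Ptgs2 (8.68 CPM) and Ptges (261 CPM), and library 3 lies far below it.

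The proportions within the branch followed these changes. Per kilobase, Ptges was 0.0643 ± 0.0156 times Ptgs1 in WT naive and 0.0575 ± 0.00908 times in Tim4KO naive cells. It was 0.288, 0.611 and 0.0923 times Ptgs1 in WT ID8 libraries 1, 2 and 3 and 0.138 ± 0.0243 times in Tim4KO ID8 cells. Ptges was therefore the smaller of the 2 RNAs in all 12 libraries. Ptgis was 1.38 ± 0.109 times Ptgs1 in WT naive and 1.17 ± 0.172 times in WT ID8 cells.

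Between the genotypes, 0 of the 10 genes were called by edgeR in naive cells, where 0.0439% of all tested genes were called, and 0 in challenged cells, where the share was 0.0565%. At an unadjusted p under 0.05 the counts were 0 of 10 in naive cells and 3 of 10 (Alox15, Ptgs2 and Ptges) in challenged cells, against 999 and 1935 of the 15943 genes. DESeq2 called 0 of the 10 in naive and 1 in challenged cells, which was Alox15. The libraries did not overlap for 1 gene in naive cells, Ptgs2, and for 1 gene in challenged cells, Alox15, where 14.2% and 15.6% of all tested genes did not. In naive cells Ptgs2 was at most 0.410 CPM in Tim4KO and at least 0.489 CPM in WT libraries, a log2 difference of -1.68 (SE 0.86, edgeR adjusted p = 0.805). The other 9 genes differed by -0.53 to 0.18 on the log2 scale in naive cells. For the interaction edgeR called 0 of 10, where 0% of all tested genes were called. At an unadjusted p under 0.05 the count was 1 of 10 (Alox15), against 1186 of the 15943 genes. DESeq2 called 0 of 10 there.

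The same data were read for how the 10 genes varied together over the 12 libraries, on a log2(CPM + 1) scale. The 12 points share the split into naive and challenged cells, which enters the correlation of any genes that changed on challenge, and no p is given. Ptgs2 and Ptges had a Pearson r of 0.84, and Alox5 and Alox5ap of 0.74. WT ID8 2 was the highest library for both Ptgs2 (8.68 CPM, the next library at 2.42) and Ptges (261 CPM). No r was computed without that library, here or for the genes nearest to Ptgs2 below. Alox5ap and Ltc4s, neither of which was called on challenge, had an r of 0.85. Alox15 and Lta4h went opposite ways (r = -0.85), as did Ptges and Hpgds (r = -0.77). The search for near genes covered the 9731 tested genes whose mean count reached 50, leaving out gene models (Gm and Rik symbols) and unnamed identifiers. Among these, the nearest to Alox15 were Apoe (r = 0.97), Itm2c (0.96) and Tmem176b (0.96). For Alox5 they were Coro1a (0.96), Dhrs1 (0.95) and Urod (0.94), and for Alox5ap S100a13 (0.96), Sh3bgrl3 (0.94) and Naa38 (0.94). Ptgs2 was nearest to Taf13 (0.94), Pip4p2 (0.94) and Rxylt1 (0.93). Ptgs1 had no gene of this named set closer than Rbm12 (0.80). For Ptges, looked up after its values were seen, they were Sod2 (0.99), Acp2 (0.98) and Slc7a7 (0.97).

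A wider list of 60 genes that supply, alternate with, transport, sense or break down eicosanoids was examined beside the 10, and 39 of them were tested. On challenge of WT cells 11 rose and 8 fell, and on challenge of Tim4KO cells 8 rose and 6 fell. Of all tested genes, 19.5% rose and 12.3% fell in WT cells, and 11.5% rose and 5.06% fell in Tim4KO cells. The same shares stand beside the counts by role given below. No count was tested against them, and none is read as a result about the list. Between genotypes and for the interaction, edgeR called 0 of the 39. In challenged cells the genotype comparison gave 2 calls with DESeq2, 1 with no filter and 1 with the background covariate, and Ptges3 was among them in each. That covariate also lowered the WT challenge count to 11. Under upper-quartile scaling the WT split was 7 higher and 14 lower. Leaving out 1 library at a time gave 12 to 23 calls in WT and 9 to 17 in Tim4KO cells, and up to 3 between genotypes in challenged cells and 3 for the interaction, both without WT ID8 3. These counts were taken over the alternatives after the data were seen.

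Of 9 tested phospholipase and arachidonate-handling genes, 2 rose and 1 fell in WT cells, and 1 rose and 2 fell in Tim4KO cells. Pla2g4a, the cytosolic phospholipase A2 that releases arachidonic acid, went from 70.9 ± 2.73 to 149.7 ± 53.7 CPM in WT cells, with libraries at 118, 212 and 119 CPM after challenge. The log2 change was 1.08 (SE 0.19, edgeR adjusted p = 0.000664), and that in Tim4KO cells 0.52 (SE 0.18, edgeR adjusted p = 0.0650). The Tim4KO change was called with no filter (0.57, adjusted p = 0.0145), with only the Tim4KO libraries (0.49, 0.00762) and without WT ID8 1 (0.0386), WT ID8 2 (0.00408) or WT ID8 3 (0.0208). It was called in 2 of the 8 settings that kept all libraries of the comparison. Of the 6 fits that left out 1 of the Tim4KO libraries compared, 0 called it (edgeR adjusted p from 0.0998 to 0.203). The Pla2g4a interaction was -0.55 (SE 0.26, edgeR adjusted p = 0.668), and its genotype difference in challenged cells was -0.47 (edgeR adjusted p = 0.332), or -0.62 (0.0430) without WT ID8 3. Without WT ID8 2 the edgeR adjusted p of that difference was 0.830. Lpcat3, which places arachidonic acid into phospholipids, rose in both genotypes, by 0.81 (SE 0.13, edgeR adjusted p = 0.000320) and 0.86 (SE 0.13, edgeR adjusted p = 0.000408). Pla2g15, a lysosomal phospholipase, fell from 138 ± 30.0 to 68.4 ± 8.60 CPM in WT cells, a log2 change of -1.01 (SE 0.16, edgeR adjusted p = 0.000303). Its change in Tim4KO cells was -0.68 (SE 0.15, edgeR adjusted p = 0.00788) and stayed called in 4 of 6 fits without 1 of those libraries. Pla2g7, which breaks down platelet-activating factor, was called in Tim4KO cells (log2 change -1.69, SE 0.39, edgeR adjusted p = 0.0147), where its naive libraries ran from 467 to 1339 CPM, and the call held in 1 of the 6 fits that left out one of these libraries. This Pla2g7 call was also lost with no filter (edgeR adjusted p = 0.0965). The Pla2g7 change in WT cells was -0.92 (SE 0.38, edgeR adjusted p = 0.0888), and it was called with DESeq2 (-0.97, adjusted p = 0.00975), under upper-quartile scaling (-1.16, 0.0360) and with only the WT libraries (-1.02, 0.0336). Whether its response differed between genotypes was tested by the interaction, -0.77 (SE 0.54, edgeR adjusted p = 0.725).

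Among the 6 tested further prostanoid synthases, 4 rose and 0 fell in WT cells, and 2 rose and 0 fell in Tim4KO cells. Tbxas1, the thromboxane synthase, rose from 184 ± 18.6 to 266 ± 15.4 CPM in WT and from 145 ± 6.14 to 232 ± 8.93 CPM in Tim4KO cells. The log2 changes were 0.53 (SE 0.11, edgeR adjusted p = 0.00295) and 0.68 (SE 0.11, edgeR adjusted p = 0.00109), the first 0.28 with an adjusted p of 0.0578 under upper-quartile scaling. Ptges3, a cochaperone also known as the cytosolic prostaglandin E synthase, rose in WT cells by 1.06 (SE 0.20, edgeR adjusted p = 0.00120), with challenged libraries at 326, 411 and 211 CPM. In Tim4KO cells its change was 0.34 (SE 0.20, edgeR adjusted p = 0.264). Library 3 was the lowest of the challenged WT libraries, as for Ptges, and without it the interaction was -0.95 with an edgeR adjusted p of 0.0190, against -0.72 and 0.668 with it. The Ptges3 difference between genotypes in challenged cells was -0.76 (edgeR adjusted p = 0.176), and it was called with DESeq2 (0.0129), with no filter (0.000315), with the background covariate (0.0259) and without WT ID8 3 (-0.99, 0.000563). Ptges2, the third prostaglandin E synthase, was called in WT cells (0.59, SE 0.20, edgeR adjusted p = 0.0344), a call that held in 2 of the 6 fits without 1 of those libraries. The Ptges2 call was also lost with the background covariate (edgeR adjusted p = 0.0785), with only the WT libraries (0.0755), under upper-quartile scaling (0.175) and with DESeq2 size factors (0.0524). Akr1b3, an aldose reductase with prostaglandin F synthase activity, rose in both genotypes, by 0.37 (edgeR adjusted p = 0.0410) and 0.63 (edgeR adjusted p = 0.00457). The WT call of Akr1b3 held in 3 of 6 fits without 1 of those libraries, and under upper-quartile scaling the change was 0.13 with an adjusted p of 0.388. It was also lost with the background covariate (edgeR adjusted p = 0.0724), with only the WT libraries (0.129) and with DESeq2 size factors (0.0660). Of the 3 other lipoxygenase and glutathione transferase genes tested, 0 were called in WT cells and 1, Mgst3, rose in Tim4KO cells (0.80, SE 0.20, edgeR adjusted p = 0.0138), in 4 of 6 fits without 1 of its libraries.

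The receptors for prostanoids moved in both directions. Of the 9 listed, 3 were tested and all 3 were called in WT cells, where 31.8% of all tested genes were called. Ptgir, the prostacyclin receptor, rose from 47.9 ± 2.25 to 85.4 ± 5.33 CPM in WT cells, a log2 change of 0.83 (SE 0.12, edgeR adjusted p = 0.000213). In Tim4KO cells it went from 61.7 ± 7.51 to 84.7 ± 7.60 CPM (0.46, SE 0.12, edgeR adjusted p = 0.0189), a call that held in 2 of 6 fits without 1 of these libraries and was lost with no filter (0.0543). Ptger4, the EP4 receptor for prostaglandin E2, fell from 103 ± 8.89 to 58.6 ± 20.1 CPM in WT and from 103 ± 16.2 to 39.3 ± 6.09 CPM in Tim4KO cells. Its log2 changes were -0.83 (SE 0.22, edgeR adjusted p = 0.0122) and -1.39 (SE 0.22, edgeR adjusted p = 0.00103), the WT change being -0.44 with an adjusted p of 0.198 with the background covariate. Without WT ID8 3 the genotypes differed in challenged cells by -0.83 (edgeR adjusted p = 0.00315), against -0.57 (0.340) with it, and the Ptger4 interaction was -0.84 (0.0433), against -0.57 (0.686). Ptger2, the EP2 receptor, was at 6.07 ± 1.65 CPM in naive and 2.87 ± 1.20 CPM in challenged WT cells, a log2 change of -1.04 (SE 0.35, edgeR adjusted p = 0.0342) that stayed called in 2 of 6 fits without 1 of its libraries. Of 6 tested leukotriene, lipoxin and resolvin receptors, 0 rose and 1 fell in each genotype. The one in Tim4KO cells was Cysltr1, a receptor for cysteinyl leukotrienes (-0.54, SE 0.16, edgeR adjusted p = 0.0330), and the call was lost in each of the 6 fits that left out 1 of its libraries and with no filter (0.0620). The one in WT cells was Ltb4r2, a receptor for leukotriene B4, at 7, 19 and 12 counts when naive and 4, 1 and 2 when challenged, a log2 change of -2.32 (edgeR adjusted p = 0.0405) whose call held in 1 of 6 fits without 1 of its libraries. Without WT ID8 3 it was -1.86 (0.135), and with the background covariate -1.45 (0.247). The Ltb4r2 call was also lost with the replicate block (edgeR adjusted p = 0.0709), with no filter (0.105) and with only the WT libraries (0.0799).

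Of the 12 tested transport and breakdown genes, 4 rose and 4 fell in WT cells, and 3 rose and 2 fell in Tim4KO cells. Hpgd, the dehydrogenase that inactivates prostaglandin E2, was at 43, 47 and 73 counts in WT naive and 4, 2 and 1 in WT ID8 libraries, and at 39, 50 and 98 in Tim4KO naive and 10, 6 and 12 in Tim4KO ID8 libraries. All challenged libraries were below all naive ones, and the means went from 4.30 to 0.226 CPM in WT and from 5.13 to 0.671 CPM in Tim4KO cells. The fitted log2 changes were -4.51 (SE 0.55, edgeR adjusted p = 5.38e-05) and -2.90 (SE 0.46, edgeR adjusted p = 0.000759), and the size of the first rests on 7 counts in challenged cells. The exporters Abcc1, which carries leukotriene C4, and Abcc4, which carries prostaglandins, rose in both genotypes. Abcc1 rose by 1.42 (SE 0.17, edgeR adjusted p = 5.20e-05) in WT and 1.05 (SE 0.17, edgeR adjusted p = 0.000983) in Tim4KO cells, and Abcc4 by 0.90 and 0.71. Ptgr1, a reductase that inactivates leukotriene B4 and prostaglandin metabolites, rose from 22.4 ± 3.16 to 44.6 ± 17.7 CPM in WT cells (edgeR adjusted p = 0.00494) and from 17.3 ± 0.579 to 49.9 ± 9.02 CPM in Tim4KO cells (edgeR adjusted p = 0.000702). Its WT call was lost with the background covariate (0.119) and with only the WT libraries (0.0618). Without WT ID8 3 the Ptgr1 interaction was 0.90 (edgeR adjusted p = 0.0386), against 0.53 (0.707) with it. Among the rest of the list, 21 genes had too few counts to be tested, among them Ptgds, Ptgdr, Ptgdr2, Tbxa2r and Alox12.

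**Figure D4:**
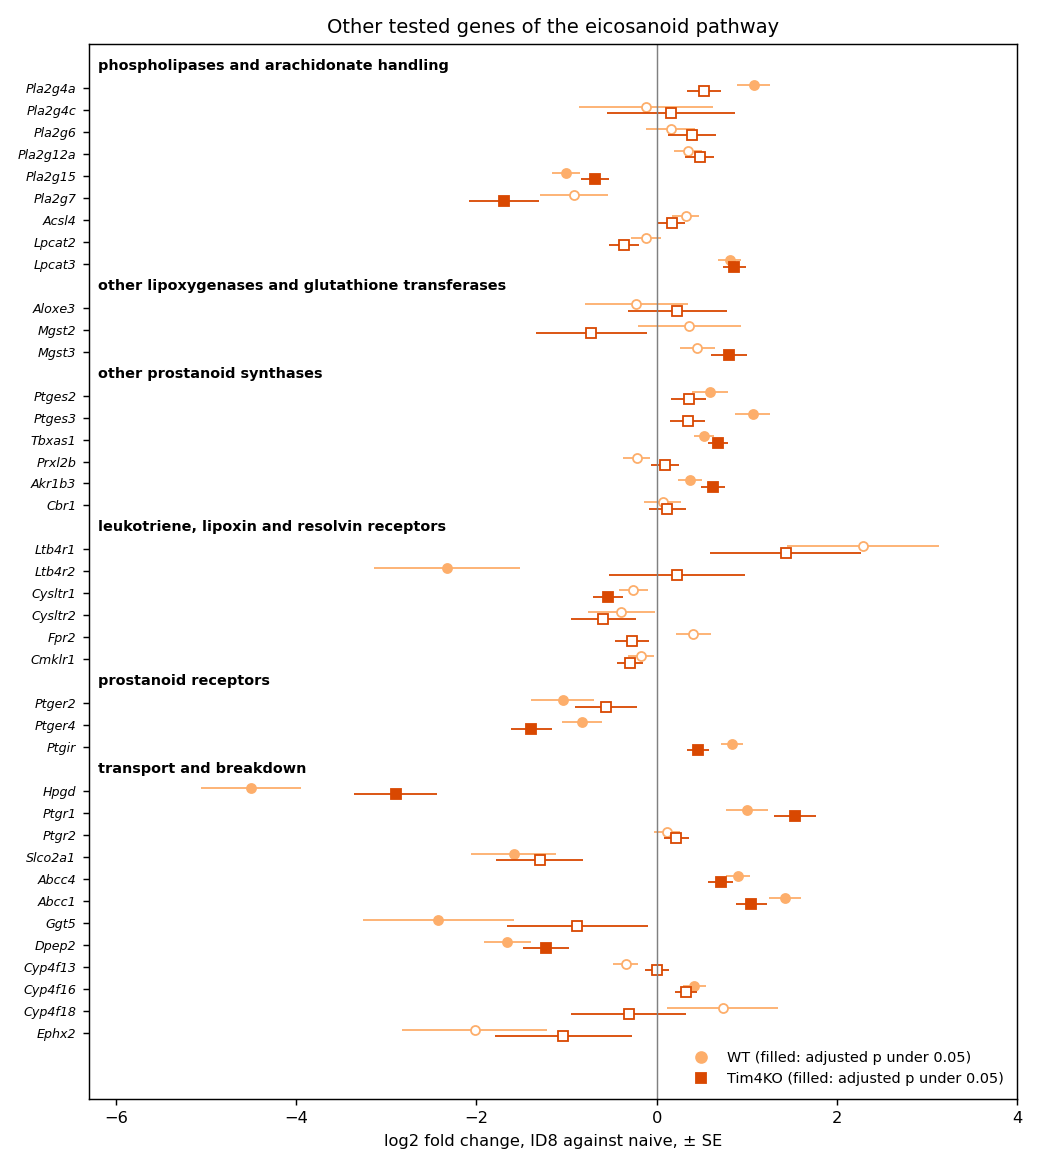
Log2 fold change on ID8 challenge of the 39 tested genes of the wider list, grouped by role, in WT and in Tim4KO cells, with bars of 1 SE from the edgeR fit and filled points for an adjusted p under 0.05. Hpgd lies lowest in both genotypes (-4.51 and -2.90), and Abcc1, Lpcat3, Tbxas1 and Ptgir lie above 0 in both.

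Antisense gene models overlap the exons of 4 members, and how the authors counted strand is not given in the sources used here. The overlaps were 189 bases for Alox5ap, 268 for Ltc4s, 156 for Ptgis and 148 for Ptgs1, of exonic lengths of 1420, 1014, 2567 and 3884 bases, so reads in those stretches cannot be assigned to a gene. Alox15, Alox5, Lta4h, Ptgs2, Ptges and Hpgds had no such overlap.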

How the data were processed

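RNA of sorted large peritoneal macrophages went into SMART-Seq mRNA LP libraries, a PCR-amplified cDNA method, per the labels. The deposited values are counts of reads per Ensembl gene, 1 column for each of 12 libraries, in 4 groups of 3; that they are raw was read from their whole numbers and unequal totals. The submitters' processing notes name FastQC, STAR 2.5 and the builds mm10 and GRCm39 without saying which step used them; the counter and its handling of strand and multi-mapping reads are not given in the sources used here, so no gene coordinates are given for the counts. GENCODE vM21 gave symbols for 52029 of 57010 identifiers, exonic lengths and overlaps. 0 columns were left unmatched.

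The members and lists were chosen with earlier results of these data known. Counts were fitted in edgeR 4.0.16 (R 4.3.3) with TMM scaling, filterByExpr by group, 1 mean per group, robust quasi-likelihood dispersion and 8 residual degrees of freedom. Two-sided F tests covered 5 comparisons, each adjusted by Benjamini-Hochberg over 15943 genes at 0.05. SE is the absolute log2 change over the square root of F. All 10 members were described. From each of 6 roles of the wider list, up to 4 called genes with the smallest p were named, and up to 3 genes nearest to each of Alox15, Alox5, Alox5ap, Ptgs1 and Ptgs2.

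On simulated counts for WT ID8 against WT naive (15228 genes), the fit recovered 70.5% of genes changed 4-fold. Alternatives were DESeq2 1.42.0, edgeR with DESeq2's size factors or with upper-quartile scaling, no low-count filter, a replicate block, limma voom 3.58.1, the summed level of 1946 olfactory and vomeronasal receptor genes (mean at most 1 CPM) as a covariate, only the groups compared, and 12 fits that left out 1 library each. The 10 marker lists were summed as CPM and not tested. Depth per library and the floor of 3 counts are given above.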

Additional observations from a re-analysis of the deposited data

How the results depend on the processing

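Of the 10 genes, the number called in naive cells between genotypes stayed 0 under every alternative run. In challenged cells it was 0, and 1 with DESeq2, with no filter and with the background covariate, and 0 to 2 when 1 library was left out. On challenge of WT cells it was 4, with 5 under DESeq2, 3 under limma voom, 1 in a fit of only the groups compared and 3 to 4 when 1 library was left out. Upper-quartile scaling and the background covariate also gave 4, but as 2 higher and 2 lower in place of 3 and 1. On challenge of Tim4KO cells it was 3, and 0 to 4 when 1 library was left out: 0 without Tim4KO naive 2 or Tim4KO ID8 1, and 4 without WT ID8 3. This count was 2 with DESeq2 size factors, under upper-quartile scaling, with no filter and with the replicate block, and 4 with only the groups compared. For the interaction it was 0, and 0 to 1 when 1 library was left out, and no fit of only the groups compared exists for it. Over all genes, the naive genotype comparison called 7, against 52 with DESeq2, 59 with no filter, 3 with limma voom, 2 with only the groups compared and 1 to 29 when 1 library was left out. The challenged genotype comparison called 9, against 265 with DESeq2, 264 with no filter, 177 with the covariate and 1 to 997. Challenge called 5067 in WT, against 3102 with only the groups compared and 3362 to 7230, and 2642 in Tim4KO cells, against 1222 to 3595. The interaction called 0, against 11 with DESeq2, 73 with no filter, 2 with the covariate and 0 to 368. The cause of these differences was not tested. Upper-quartile scaling moved the median log2 change of all genes from -0.04 to -0.28 in WT and from -0.05 to -0.17 in Tim4KO cells, and the share of calls that were higher from 61.3% to 33.9% and from 69.5% to 48.7%. With DESeq2 size factors those shares were 55.2% and 60.5%. Relative to that median, Alox15 changed by -0.50 in Tim4KO cells under TMM and by -0.49 under upper-quartile scaling. At this depth, Ptgs2, Hpgds, Hpgd and Ltb4r2 rest on few counts.

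Whether replicate numbers pair the libraries was not settled. Of 18 pairs of libraries with the same number, 6 had deviations that correlated above 0.1 (r from -0.09 to 0.33, median 0.07). Of the 12 libraries, 7 correlated best with their own number. With the replicate block, 3 genes were called between genotypes in naive and 14 in challenged cells, 2 of the 10 on challenge of Tim4KO cells and 4 in WT cells, and the Alox5 change in Tim4KO cells had an edgeR adjusted p of 0.0563.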
